A study of Mus musculus with 10 samples.

Results

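Chemokines are small secreted proteins that guide leukocytes, and most of their receptors are G protein-coupled receptors on the leukocyte surface. Members are named by the spacing of their conserved cysteines (CC, CXC, CX3C and XC), and one receptor often answers several ligands. In lung, some of them are made in the resting tissue, such as Cxcl12 and Ccl21a, which place lymphocytes, while others, such as Ccl2 and Ccl3, are made on inflammation and draw monocytes and other cells. The genes described here are the mouse chemokines and chemokine receptors other than the neutrophil attractants Cxcl1, Cxcl2, Cxcl3, Cxcl5 and Cxcl15 and their receptor Cxcr2. They were taken by symbol (Ccl, Ccr, Cxcl or Cxcr with a number, Cx3cl1, Cx3cr1, Xcl1 and Xcr1). In the RefSeq table, 57 genes fit that rule, and 47 of them had a probe, among 19096 genes with a probe in all. The 10 others, of which 4 are pseudogenes, are not analysed here.

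RNA was measured in 5 wild-type (WT) lungs and 5 lung squamous cell carcinomas (SCC), each on its own single-colour Agilent whole-mouse-genome array, with 29 ligands and 18 receptors of the set represented. Both groups were 13 months old, were labelled as strain B6.129, and carried floxed Lkb1 alleles (Lkb1f/f). WT animals had whole lung extracted, while SCC animals also carried CCSPiCre, a Cre recombinase driven by the promoter of a club cell secretory protein gene, which deletes Lkb1 in airway epithelium, and had the whole tumor extracted. The comparison asked what differs in RNA between a tumor that formed without Lkb1 and lung that keeps it. In such bulk RNA fewer cells of a type and less RNA per cell cannot be told apart. The labels do not say whether each sample came from a separate animal, so p-values measure the spread between these samples.

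Values are quantile-normalized intensities on the log2 scale, and differences are SCC minus WT. A probe was tested if it stood well above background on at least 4 of the 5 arrays of a group, and it was called at a limma adjusted p below 0.05 (adjustment over all 30374 tested probes) with at least a 2-fold difference. Of the 47 genes, 40 were tested and 7 were too dim. The tumor label was checked against 6 squamous epithelium markers. Krt6a, Dsg3 and Pkp1 were above background on no WT array and on all 5 SCC arrays, so they were tested only through SCC. The list had a summed level (log2 of the summed signal of its genes) of 7.42 to 7.96 in WT and 16.30 to 18.96 in SCC. SCC replicate 2 had the lowest of these SCC levels. That replicate was also the only SCC array with a low value of Xist, at 2.29 log2 units, against 13.69 to 14.28 on the other SCC arrays. SCC replicate 5 had 90.2% of its probes above background, against 71.0% to 74.5% on the other 9 arrays. It joined Xist at 13.69 with the Y-linked Ddx3y at 8.66, where the other arrays with high Xist had Ddx3y between 1.62 and 4.96. These Xist and Ddx3y values are log2 processed signals before quantile normalization. Only slide 2 held both groups (WT replicate 5 and SCC replicates 1 to 3).

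Among the 40 tested genes, 11 were called higher in SCC, 10 lower and 19 neither. Over all 15586 tested genes, 11.6% were called higher and 13.4% lower (24.9% either way). The groups did not overlap for 18 of the 40 genes, against 41.4% of all tested genes. Monocyte attractants and the inflammatory ligands Ccl3, Ccl4 and Ccl9 were higher, and the receptors Cxcr5, Ccr7, Ccr6 and Cxcr6 were lower, while Cxcr3 (0.16) and Cxcr4 (-0.19) were not called. Of 27 tested ligands, 9 were higher and 5 lower. The median difference was 0.16 over the 40 genes and -0.04 over all tested genes.

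**Figure D1:**
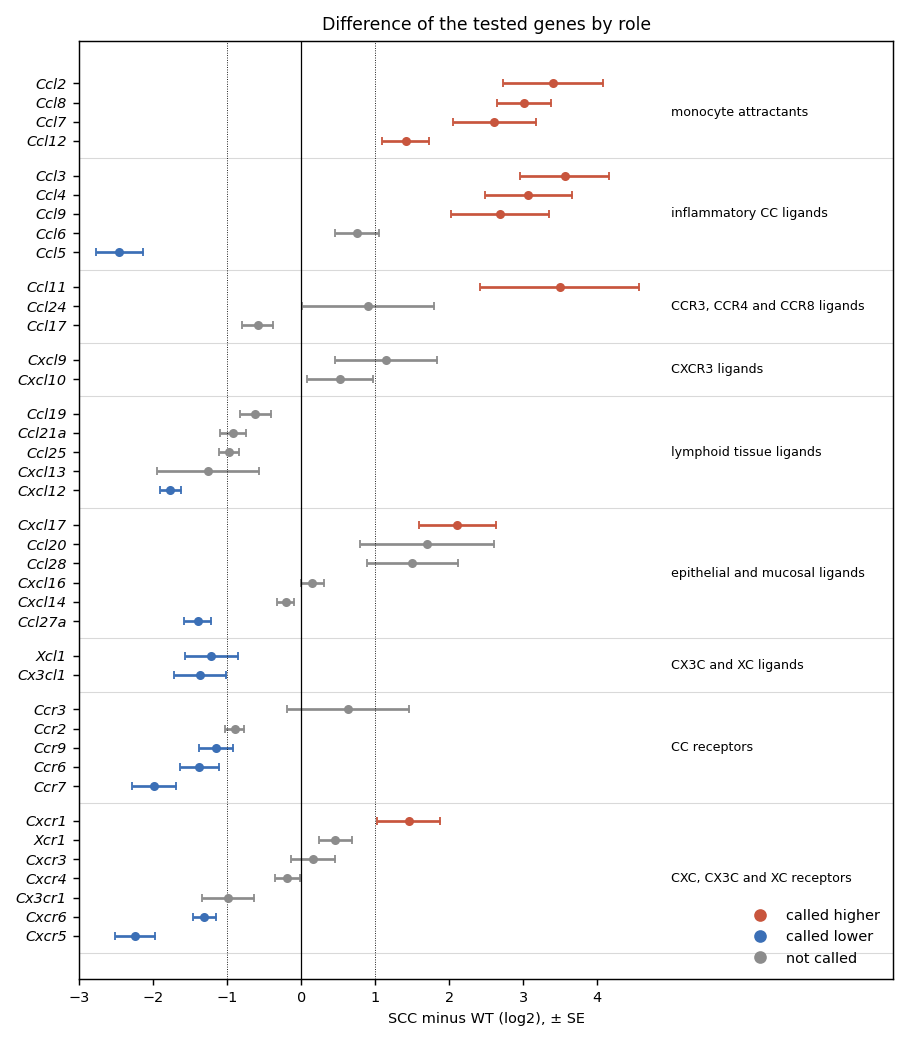
Differences between SCC and WT (log2, ± SE, n = 5 per group) of the tested genes, in rows grouped by role, with dotted lines at a 2-fold difference. Red points were called higher and blue points lower, and the 4 monocyte attractants are all red, from 1.41 to 3.40.

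With slide as a fixed block, a fit in which only slide 2 and its single WT array inform the difference, 2 of the 11 higher genes, Ccl8 among them, and 4 of the 10 lower genes (Ccl27a, Ccl5, Cxcl12 and Cxcr6) stayed called, and Ccl25 joined them. In that fit 9.84% of all tested probes were called, against 22.9% without the block. All 21 called genes had the same sign within slide 2. Its arrays are among the 10 that gave the calls, so this is not separate support. Slide and group can be separated only through the single WT array of slide 2.

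The clearest gain was among the monocyte attractants, where 4 of 4 genes were called higher. Of these, Ccl2, Ccl7 and Ccl12 are ligands of CCR2. Ccl2, the main monocyte chemoattractant, read 8.94, 7.93, 7.19, 8.10 and 7.47 on WT replicates 1 to 5 and 11.97, 8.64, 12.32, 11.65 and 12.06 on SCC replicates 1 to 5. SCC replicates 1, 3, 4 and 5 lay far above WT, while SCC replicate 2 lay inside the WT range, just below WT replicate 1. The difference was 3.40 ± 0.676 (SE, n = 5 per group), 10.6-fold higher, with an adjusted p of 0.0025. Ccl8, a ligand shared by several CC receptors, read 7.92, 8.74, 8.52, 8.68 and 8.64 in WT and 11.87, 10.06, 12.14, 11.57 and 11.91 in SCC. All SCC arrays were above all WT arrays, and SCC replicate 2 was again the lowest of them. Its difference was 3.01 ± 0.369 (SE, n = 5 per group), 8.05-fold higher, with an adjusted p of 0.000149. Ccl7, another ligand of CCR2, read 7.36, 5.86, 5.65, 6.62 and 6.28 in WT and 9.31, 6.88, 9.94, 9.17 and 9.51 in SCC. SCC replicate 2 was below the highest WT array and the other SCC arrays were above it. The difference was 2.61 ± 0.561 (SE, n = 5 per group), 6.09-fold higher, with an adjusted p of 0.00385. Ccl12, the rodent ligand of CCR2 closest to Ccl2, was 8.92, 7.35, 7.44, 8.32 and 8.52 in WT and 9.73, 8.93, 9.82, 9.60 and 9.51 in SCC. The groups did not overlap, although SCC replicate 2 lay only just above WT replicate 1, and the difference was 1.41 ± 0.319 (SE, n = 5 per group), 2.65-fold higher, with an adjusted p of 0.0051.

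The receptor of Ccl2, Ccl7 and Ccl12 did not follow them. Ccr2, which marks inflammatory monocytes, read 10.61, 10.60, 10.50, 10.70 and 10.55 in WT and 10, 9.62, 9.28, 9.72 and 9.86 in SCC. Every SCC array was below every WT array, and the difference of -0.90 ± 0.131 (SE), adjusted p = 0.000421, passed the adjusted p but not the 2-fold limit. Markers of macrophages and monocytes were called higher for 3 of 9 genes (Cd68 and Itgam among them) and lower for none. Csf1r (-0.50 ± 0.114 (SE), adjusted p = 0.00517) and Marco (-0.75 ± 0.226 (SE), adjusted p = 0.0199) were below WT by under 2-fold. Mrc1 (0.65 ± 0.232 (SE), adjusted p = 0.0419) was above WT by under 2-fold. The summed level of the 9 markers was 18.21 to 18.33 in WT and 17.93 to 18.54 in SCC, with the lowest value on SCC replicate 2, and none of the 9 was below background on any array. The part of these cells in the ligand differences was not tested. Within slide 2 the differences of Ccl2, Ccl8, Ccl7 and Ccl12 were 3.50, 2.72, 2.43 and 0.97.

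The other inflammatory CC ligands split, with 3 of 5 called higher and 1 lower. Ccl3, a macrophage inflammatory protein that acts on CCR1, read 8.37, 8.05, 7.42, 8.10 and 7.21 in WT and 12, 8.90, 12.11, 12.13 and 11.81 in SCC. It had the largest difference of the 40 genes, 3.56 ± 0.602 (SE, n = 5 per group), 11.8-fold higher, with an adjusted p of 0.000992. The groups did not overlap, but SCC replicate 2 lay close above the highest WT array and far below the other tumors. Ccl4, the macrophage inflammatory protein closest to Ccl3, read 7.99, 8.08, 7.48, 8.02 and 7.63 in WT and 11.69, 8.45, 11.82, 10.93 and 11.67 in SCC. SCC replicate 2 was only slightly above WT, and the other 4 SCC arrays were well above it. The difference was 3.07 ± 0.588 (SE, n = 5 per group), 8.39-fold higher, with an adjusted p of 0.00201. Ccl9, a ligand of CCR1 found in rodents, was 11.40, 11.48, 11.16, 11.38 and 10.69 in WT and 14.51, 11.09, 14.96, 14.20 and 14.75 in SCC. SCC replicate 2 lay inside the WT range, and the groups overlapped through that array alone. The difference was 2.68 ± 0.662 (SE, n = 5 per group), 6.4-fold higher, with an adjusted p of 0.00798.

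Ccl6, which also signals through CCR1, read 16.08, 15.95, 15.65, 16.07 and 15.26 in WT and 16.71, 15.45, 17.02, 16.70 and 16.87 in SCC. Apart from SCC replicate 2 the SCC arrays were above WT, and the difference of 0.75 ± 0.298 (SE), adjusted p = 0.0612, was not called. It passed without SCC replicate 2, at 1.02 with an adjusted p of 0.00114. Ccl5, made chiefly by T and NK cells, went the other way, with 14.31, 13.87, 13.33, 14.28 and 14.15 in WT and 12.63, 11.04, 11.33, 11.11 and 11.54 in SCC. All SCC arrays were below all WT arrays, SCC replicate 1 being the highest of them. The difference was -2.46 ± 0.315 (SE, n = 5 per group), 5.49-fold lower, with an adjusted p of 0.000192, the largest fall of any gene in the set.

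Ccr1, on which several of these ligands act, was above background on 1 WT and 3 SCC arrays and was not tested. Its measured means were 3.75 in WT and 5.14 in SCC. Within slide 2 the differences of Ccl3, Ccl4, Ccl9 and Ccl5 were 3.80, 3.02, 2.83 and -2.49.

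**Figure D2:**
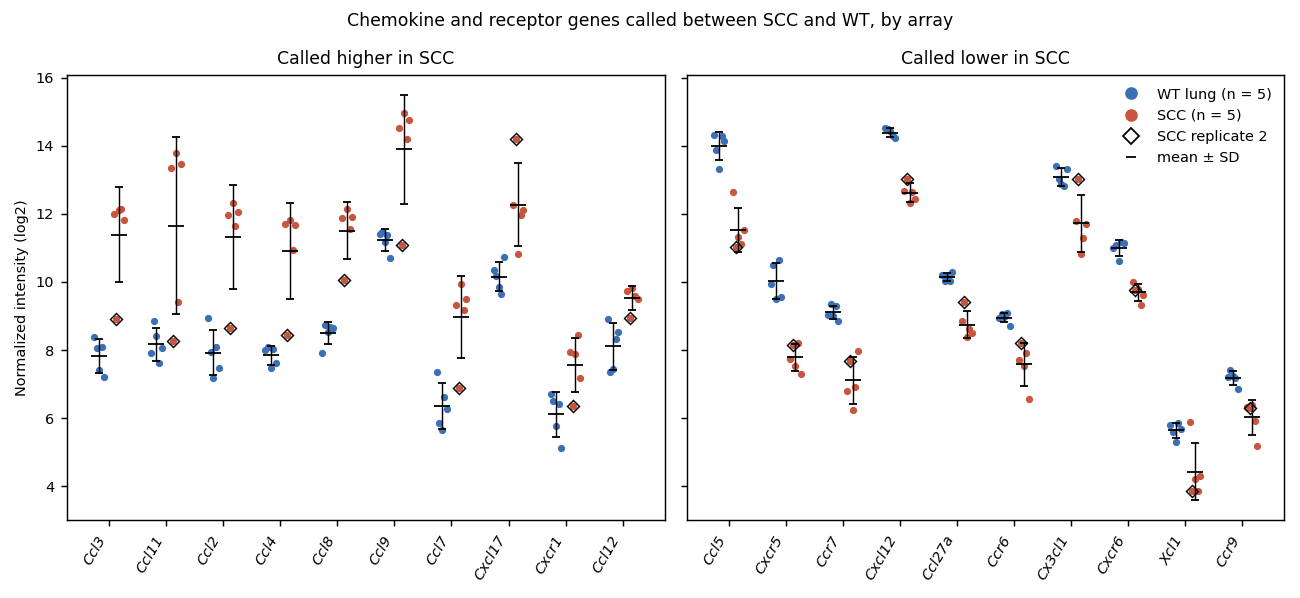
Normalized intensity (log2) of the called genes on every array, blue for WT and red for SCC (n = 5 each), with bars at the mean ± SD and a diamond around SCC replicate 2. In the left panel SCC replicate 2 sits lowest of the SCC arrays for the higher genes shown other than Cxcl17, and in the right panel the red points lie below the blue ones for most of the 10 lower genes.

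Eosinophil attractants and their receptor were highest on the same 3 tumors. Ccl11 (eotaxin), a ligand of CCR3, read 7.90, 8.86, 8.42, 7.61 and 8.06 in WT and 13.34, 8.27, 13.79, 9.41 and 13.47 in SCC. SCC replicates 1, 3 and 5 were far above WT, SCC replicate 4 was slightly above it, and SCC replicate 2 lay inside its range. The difference was 3.49 ± 1.07 (SE, n = 5 per group), 11.2-fold higher, with an adjusted p of 0.0225. This call was lost without SCC replicate 1 (3.06, adjusted p = 0.054) or SCC replicate 3 (2.95, adjusted p = 0.053). Ccl24, the second eotaxin, was 7.89, 8.81, 8.03, 8.71 and 8.27 in WT and 10.51, 5.96, 10.89, 8.10 and 10.75 in SCC. The same 3 SCC arrays were above WT, SCC replicate 2 was below it, and the difference of 0.90 ± 0.892 (SE), adjusted p = 0.421, was not called. Without SCC replicate 2 it reached 1.72 with an adjusted p of 0.0258.

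Ccr3, the eotaxin receptor, read 7.13, 9.66, 7.30, 7.14 and 6.73 in WT and 8.79, 5.93, 9.20, 7.17 and 10 in SCC. SCC replicates 1, 3 and 5 were again the highest of their group, but WT replicate 2 lay among them. The difference of 0.63 ± 0.82 (SE), adjusted p = 0.544, was not called. Of the eosinophil markers, none of 3 tested was called. The defining gene Epx was above background on SCC replicates 1, 3 and 5 and on no WT array, too few to be tested. It read 1.67, 1.69, 2.80, 2.33 and 1.68 in WT and 5.38, 1.67, 5.75, 2.85 and 2.96 in SCC. SCC replicate 5, the array with most probes above background, read close to SCC replicate 4 and WT replicate 3, which were not above background. Prg2, another granule protein, read 2.41, 4.12, 3.70, 2.99 and 5.26 in WT and 7.62, 1.70, 8.25, 5.80 and 7.65 in SCC, highest on SCC replicates 1, 3 and 5. It was above background on 2 WT and 4 SCC arrays and so was tested only through SCC. Its difference was 2.50 ± 1.17 (SE), adjusted p = 0.102, and it was not called. The part of eosinophils in the eotaxin and Ccr3 values was not tested. Ear1 alone carried most of the summed level of the list, which was 14.74 to 15.45 in WT and 14.27 to 15.38 in SCC. Ccl17, a ligand of CCR4, read 8.77, 9.05, 9.27, 9.48 and 8.63 in WT and 8.33, 9.06, 8.39, 8.17 and 8.30 in SCC. SCC replicate 2 lay with the WT arrays and the other 4 below all of them, with a difference of -0.59 ± 0.21 (SE), adjusted p = 0.0409, under 2-fold.

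Ccr4 itself was above background on no WT array and on SCC replicates 4 and 5. It read 4.30, 3.79, 2.48, 4.17 and 2.73 in WT and 4.66, 3.17, 4.72, 4.91 and 6.75 in SCC and was not tested. A second Ccr4 probe was above background on no array (means of 2.37 in WT and 2.27 in SCC). Ccr8 read 1.86, 1.85, 1.75, 3.51 and 1.99 in WT and 2.08, 1.81, 1.89, 2.01 and 6.02 in SCC and was above background on SCC replicate 5 alone. Ccr10, the receptor of Ccl27a and Ccl28, read 1.61, 1.61, 1.64, 1.60 and 2.30 in WT and 1.60, 1.61, 1.60, 1.60 and 2.92 in SCC and was also above background on SCC replicate 5 alone. No fold is given for these 3 receptors, since at most 2 arrays measured each of them above background. SCC replicate 5 is the array with the largest share of probes above background. The ligands Ccl1 and Ccl22 and the receptor Ccr1l1 were above background on 1 to 3 arrays of each group and were not tested.

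The ligands of CXCR3, which are induced by interferon and attract activated T and NK cells, gave no call. Cxcl9 read 6.95, 6.73, 6.59, 7.59 and 7.63 in WT and 9.34, 6.68, 9.73, 6.25 and 9.16 in SCC. SCC replicates 1, 3 and 5 were above every WT array and SCC replicate 4 was below them all, with a difference of 1.14 ± 0.692 (SE), adjusted p = 0.197. Cxcl10 read 8.50, 8.49, 7.14, 8.76 and 9.22 in WT and 9.52, 8.29, 9.71, 8.01 and 9.21 in SCC. Its groups overlapped widely, and the difference was 0.52 ± 0.443 (SE), adjusted p = 0.347. Cxcr3 read 9.46, 9.67, 9.29, 9.89 and 9.87 in WT and 9.88, 9.23, 9.45, 10.92 and 9.51 in SCC. Only SCC replicate 4 stood above WT, and the difference of 0.16 ± 0.296 (SE), adjusted p = 0.666, turned to -0.12 without that array. Within slide 2 the differences of Cxcl10 and Cxcr3 were -0.05 and -0.34, opposite in sign to those over all arrays.

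Of 5 ligands that organise lymphoid tissue, 1 was called lower in SCC and 3 more had lower values that passed the adjusted p but not the 2-fold limit. Over the whole set 6 genes passed the adjusted p without reaching 2-fold. By the adjusted p alone, 11 higher and 16 lower genes of the 40 passed, against 53.9% of all tested genes. Cxcl12, the stromal ligand of CXCR4, read 14.51, 14.49, 14.44, 14.29 and 14.22 in WT and 12.66, 13.04, 12.31, 12.65 and 12.45 in SCC. The groups were far apart and the WT arrays tight. The difference was -1.77 ± 0.139 (SE, n = 5 per group), 3.4-fold lower, with an adjusted p of 1.33e-05. A second, dimmer Cxcl12 probe, designed on another transcript of the gene, read 8.59, 7.93, 7.79, 7.07 and 8.88 in WT and 7.62, 8.31, 7.26, 8.04 and 6.50 in SCC. Its groups overlapped, and with a difference of -0.51 ± 0.412 (SE), adjusted p = 0.327, it was not called, so the 2 probes disagree on the call but not on the sign. Fibroblast markers were called lower for 4 of 6 genes, with a summed level of 16.45 to 16.67 in WT and 15.80 to 16.36 in SCC, and blood endothelium markers for 6 of 6. Their part in the Cxcl12 difference was not tested.

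Cxcr4, the receptor of Cxcl12, read 10.13, 10.45, 10.16, 10.94 and 10.37 in WT and 10.30, 9.84, 10.44, 10.19 and 10.32 in SCC. The groups overlapped, with a difference of -0.19 ± 0.173 (SE), adjusted p = 0.376. Ccl19, a ligand of CCR7 that guides T cells and dendritic cells, read 10.54, 10.94, 11.03, 11.39 and 11.08 in WT and 10.59, 10.18, 10.08, 10.96 and 10.08 in SCC. SCC replicates 1 and 4 fell in the WT range and the other 3 below it, with a difference of -0.62 ± 0.211 (SE), adjusted p = 0.0336. Ccl21a, the other CCR7 ligand, read 14.06, 13.80, 13.78, 13.92 and 14.00 in WT and 12.92, 13.51, 12.51, 13.23 and 12.78 in SCC. The groups did not overlap, and the difference of -0.92 ± 0.178 (SE), adjusted p = 0.00211, was just under 2-fold. Near-identical copies of Ccl21a exist in the mouse genome, and its probe may read them too.

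Their receptor was called lower. Ccr7 read 9.03, 9.35, 9, 9.28 and 8.86 in WT and 6.79, 7.67, 6.25, 6.90 and 7.96 in SCC. Every SCC array was below every WT array, with SCC replicate 5 the nearest to WT. The difference was -1.99 ± 0.3 (SE, n = 5 per group), 3.97-fold lower, with an adjusted p of 0.000503. Cxcr5, which brings B cells into follicles, read 9.95, 10.50, 9.50, 10.65 and 9.57 in WT and 7.74, 8.15, 7.52, 8.22 and 7.29 in SCC. The groups were clearly apart, and the difference was -2.25 ± 0.274 (SE, n = 5 per group), 4.77-fold lower, with an adjusted p of 0.000142. Its ligand Cxcl13 read 7.93, 11.13, 8.89, 11.61 and 10.16 in WT and 8.49, 8.75, 8.43, 9.84 and 7.93 in SCC. WT replicate 1 was as low as the lowest tumor while WT replicates 2 and 4 were the highest arrays, and the difference of -1.26 ± 0.686 (SE), adjusted p = 0.154, was not called. Without WT replicate 1 it was -1.76 with an adjusted p of 0.0362 and was called.

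Ccl25, a thymic and intestinal ligand of CCR9, read 10.52, 10.45, 10.50, 10.46 and 10.52 in WT and 9.64, 9.21, 9.32, 9.41 and 9.98 in SCC. WT arrays were nearly equal and the groups apart, and the difference of -0.98 ± 0.14 (SE), adjusted p = 0.000376, was narrowly under 2-fold. Ccr9 read 7.22, 7.40, 7.25, 7.17 and 6.85 in WT and 6.34, 6.29, 6.39, 5.92 and 5.18 in SCC. The groups did not overlap, and SCC replicate 5 was the lowest. The difference was -1.15 ± 0.231 (SE, n = 5 per group), 2.22-fold lower, with an adjusted p of 0.00263, and without SCC replicate 5 it was -0.94 and under 2-fold. With normexp correction the Ccr9 difference was -0.59, also under 2-fold.

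Markers of lymphocytes moved with these genes. Of T cell markers, 6 of 9 were called lower (Cd3d, Cd3g, Cd8a, Cd2, Lck and Cd28) and none higher, and their summed level was 12.46 to 13.25 in WT and 11.34 to 12.24 in SCC. Of B cell markers, 5 of 6 tested were called lower, with a summed level of 13.21 to 14.00 in WT and 11.32 to 11.94 in SCC, and one of them, Cr2, was above background on 3 SCC arrays and tested only through WT. Of NK cell markers, 5 of 7 were called lower, with a summed level of 11.35 to 12.04 in WT and 8.70 to 9.69 in SCC. Lymphatic endothelium, a source of Ccl21a, had 3 of 4 tested markers called lower, with a summed level of 14.28 to 14.57 in WT and 11.90 to 12.92 in SCC. Its defining gene Prox1 was above background on SCC replicate 5 alone and was not tested. Dendritic cell markers had 2 of 7 called higher (Itgax and Batf3) and 4 lower (Zbtb46, Clec9a, Cd209a and Siglech). Clec9a was above background on 3 SCC arrays and Cd209a and Siglech on 2 each, so these 3 were tested only through WT. The dendritic list had a summed level of 13.05 to 13.46 in WT and 12.99 to 15.73 in SCC. The part of any of these cells in the receptor differences was not tested.

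**Figure D3:**
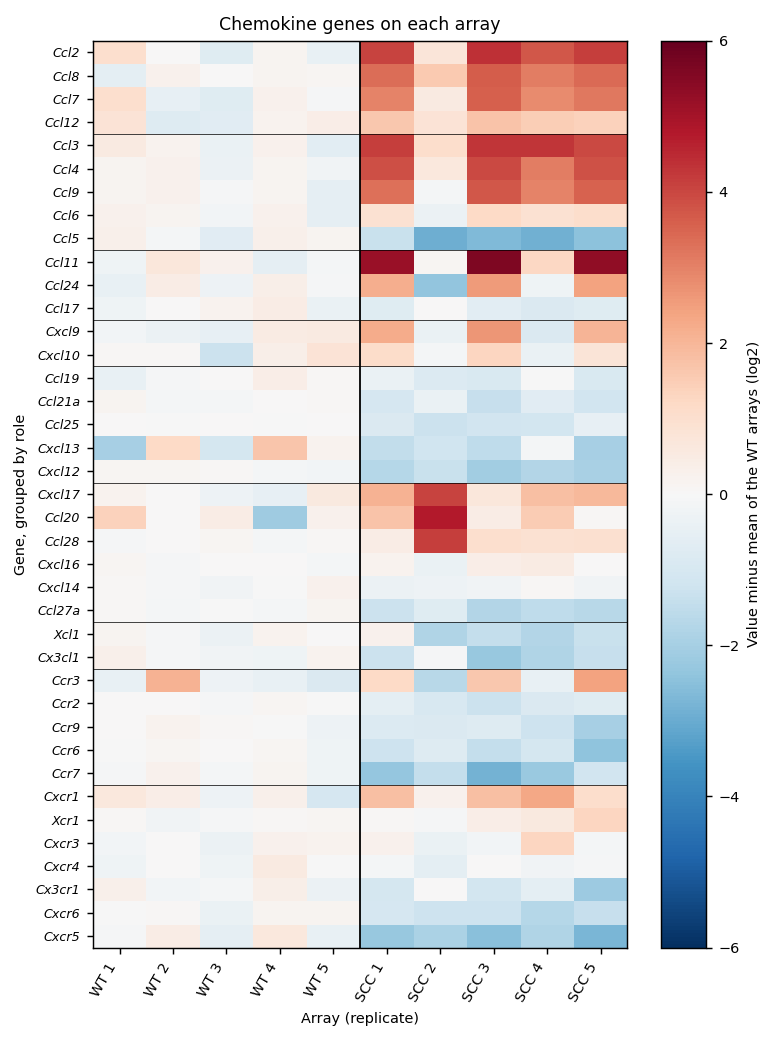
Each array's value minus the mean of the WT arrays (log2), for the tested genes in rows grouped by role and the 10 arrays in columns, red above and blue below the WT mean. SCC replicate 2 is pale for the inflammatory ligands at the top and dark red for Cxcl17, Ccl20 and Ccl28, while Cxcr5, Ccr7, Ccr6 and Cxcr6 are blue on all SCC arrays.

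Chemokines of epithelium and mucosa differed among themselves, with 1 of 6 called higher and 1 lower. Cxcl17, a mucosal chemokine, read 10.36, 10.18, 9.86, 9.66 and 10.72 in WT and 12.26, 14.19, 10.82, 11.96 and 12.12 in SCC. All SCC arrays were above WT, with SCC replicate 2 the highest and SCC replicate 3 the lowest. The difference was 2.11 ± 0.523 (SE, n = 5 per group), 4.33-fold higher, with an adjusted p of 0.00798. Ccl28, a mucosal ligand of CCR10, read 4.07, 4.13, 4.25, 3.98 and 4.17 in WT and 4.56, 8.28, 5.11, 5.03 and 5.10 in SCC. The probe was above background on 3 WT and 5 SCC arrays, so it was tested only through SCC. Every SCC array was above every WT array, SCC replicate 2 by far the most. The difference of 1.5 ± 0.615 (SE), adjusted p = 0.068, was not called, and with normexp correction it was 0.59. Without SCC replicate 2 the difference was 0.83 with an adjusted p of 0.000512, again not called because it was under 2-fold.

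Ccl20, the ligand of CCR6, was above background on 2 WT and 4 SCC arrays. It read 5.74, 4.41, 4.82, 2.26 and 4.65 in WT and 6.07, 9.12, 4.83, 5.91 and 4.46 in SCC, with SCC replicate 2 far above the others, and the difference of 1.70 ± 0.908 (SE), adjusted p = 0.145, was not called. Ccr6, a receptor of B cells and some T cells, read 8.94, 9.05, 8.98, 9.09 and 8.72 in WT and 7.70, 8.20, 7.53, 7.90 and 6.55 in SCC. The groups did not overlap and SCC replicate 5 was the lowest. The difference was -1.38 ± 0.267 (SE, n = 5 per group), 2.61-fold lower, with an adjusted p of 0.00211. With normexp correction it was -0.98 (adjusted p = 0.000388) and under 2-fold, so it was not called. Ccl27a, the skin ligand of CCR10, read 10.21, 10.04, 10.14, 10.03 and 10.30 in WT and 8.84, 9.40, 8.39, 8.61 and 8.50 in SCC. The SCC arrays were all below WT, SCC replicate 2 being the nearest to it. The difference was -1.40 ± 0.18 (SE, n = 5 per group), 2.63-fold lower, with an adjusted p of 0.0002.

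Cxcl16, a membrane-bound ligand, read 11.61, 11.41, 11.49, 11.48 and 11.38 in WT and 11.68, 11.09, 11.86, 11.98 and 11.52 in SCC. The SCC arrays lay on both sides of the WT arrays, with a difference of 0.15 ± 0.16 (SE), adjusted p = 0.457. Its receptor Cxcr6, found on resident T and NK cells, read 11, 11.10, 10.61, 11.18 and 11.15 in WT and 9.99, 9.77, 9.78, 9.32 and 9.62 in SCC. No SCC array reached the lowest WT array, and the difference was -1.31 ± 0.152 (SE, n = 5 per group), 2.48-fold lower, with an adjusted p of 0.000106. Cxcl14, a chemokine of resting epithelium, had values of 13.93 to 14.40 in WT and 13.80 to 14.22 in SCC. With a difference of -0.21 ± 0.117 (SE), adjusted p = 0.165, it was not called. Within slide 2 the differences of Cxcl17, Ccl27a, Ccr6 and Cxcr6 were 1.70, -1.42, -0.92 and -1.31.

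The ligands of the CX3C and XC classes are Cx3cl1 and Xcl1. Cx3cl1 (fractalkine), a tethered ligand on endothelium and epithelium, read 13.41, 13.03, 12.88, 12.81 and 13.32 in WT and 11.78, 13.04, 10.81, 11.29 and 11.69 in SCC. SCC replicate 2 was level with WT, and the other 4 were below all WT arrays. The difference was -1.37 ± 0.358 (SE, n = 5 per group), 2.58-fold lower, with an adjusted p of 0.0105. Blood endothelium markers were called lower for 6 of 6 genes, with a summed level of 17.42 to 17.85 in WT and 15.06 to 16.11 in SCC, SCC replicate 2 being the highest tumor, and their part in the Cx3cl1 difference was not tested. Cx3cr1, the receptor, read 9.47, 8.99, 9.05, 9.52 and 8.79 in WT and 8.10, 9.18, 8.06, 8.56 and 7 in SCC. Again SCC replicate 2 alone lay within the WT range, and the difference of -0.99 ± 0.354 (SE), adjusted p = 0.0421, was just under 2-fold.

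Xcl1, made by NK and CD8 T cells, was above background on all WT arrays but only on SCC replicates 1 and 5. It read 5.79, 5.58, 5.29, 5.87 and 5.68 in WT and 5.88, 3.85, 4.22, 3.87 and 4.31 in SCC. SCC replicate 1 exceeded every WT array by a little and the other 4 were below them. The difference was -1.22 ± 0.357 (SE), adjusted p = 0.0181, and no fold is given because 3 SCC arrays were not above background. This call is therefore uncertain, since the probe was tested only through its WT arrays. The difference was -0.84 (adjusted p = 0.253) with scaling to the 75th percentile and -0.28 (adjusted p = 0.0418) with normexp correction, and was called under neither. Xcr1, the receptor on cross-presenting dendritic cells, read 6.82, 6.56, 6.71, 6.84 and 6.88 in WT and 6.85, 6.70, 7.16, 7.36 and 8.04 in SCC. Its difference of 0.46 ± 0.228 (SE), adjusted p = 0.12, was not called. Cxcr1 was the one CXC receptor called higher. It read 6.72, 6.50, 5.78, 6.42 and 5.12 in WT and 7.93, 6.37, 7.89, 8.43 and 7.18 in SCC. SCC replicate 2 lay among the WT arrays and the others above them. The difference was 1.45 ± 0.423 (SE, n = 5 per group), 2.73-fold higher, with an adjusted p of 0.0176. With normexp correction it was 0.78 (adjusted p = 0.0149) and was not called. The analysis of variance named in the methods, run here on the same values with an unadjusted threshold of 0.01, did not call Cxcr1, Ccl11 or Xcl1. Cxcr1 is a neutrophil receptor that the selection by symbol kept. Neutrophil markers were called higher for 3 of 6 tested genes, with a summed level of 14.73 to 15.54 in WT and 14.05 to 16.86 in SCC, with the lowest value on SCC replicate 2, and their part in the Cxcr1 difference was not tested.

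Because SCC replicate 2 recurred, the SCC arrays were set side by side. Over the 11 genes called higher, the median excess over the WT mean was 0.71 on SCC replicate 2 and 2.82 to 3.64 on the other SCC arrays. SCC replicate 2 was above the WT range for 6 of the 11 genes, and each of the other 4 arrays for all 11. Over the 10 genes called lower, the medians ran from -1.91 to -1.30, SCC replicates 1 and 2 both being at -1.30. Leaving SCC replicate 2 out raised the differences of Ccl11 to 4.33, Ccl3 to 4.18, Ccl2 to 4.07, Ccl4 to 3.68, Ccl9 to 3.38 and Ccl7 to 3.13. It lowered Cxcl17 to 1.64. The counts were then 13 genes higher and 12 lower.

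**Figure D4:**
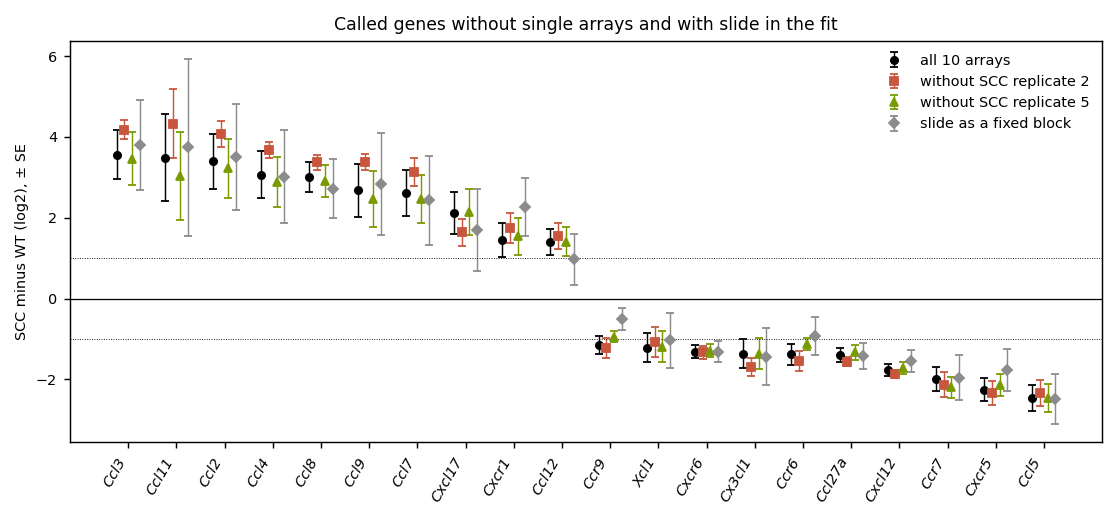
Difference (log2, ± SE) of the called genes over all 10 arrays (black), without SCC replicate 2 (red), without SCC replicate 5 (green) and with slide as a fixed block (grey), with dotted lines at 2-fold. All signs are kept, in fits that share arrays and so are not separate checks. The errors of the inflammatory ligands shrink without SCC replicate 2, and the errors under the slide block are the widest.

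Many chemokine genes lie next to each other, so the calls were read in gene order, counting as neighbours those with no more than 10 other genes between them. On chromosome 11, Ccl2, Ccl7, Ccl11, Ccl12 and Ccl8 follow each other and all 5 were called higher, while Ccl1 at the end was not tested. In the second group on chromosome 11, Ccl5 was called lower and was followed by Ccl9 (higher), Ccl6 (not called), Ccl3 (higher) and Ccl4 (higher). On chromosome 9, the receptors Ccr9 and Cxcr6 at one end were lower, and Xcr1, Ccr3 and Ccr2, further along, were not called. The first group on chromosome 11 held calls in one direction and the second in both. Neighbouring family members can be alike in sequence, and whether a probe also reads a relative was not tested.

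**Figure D5:**
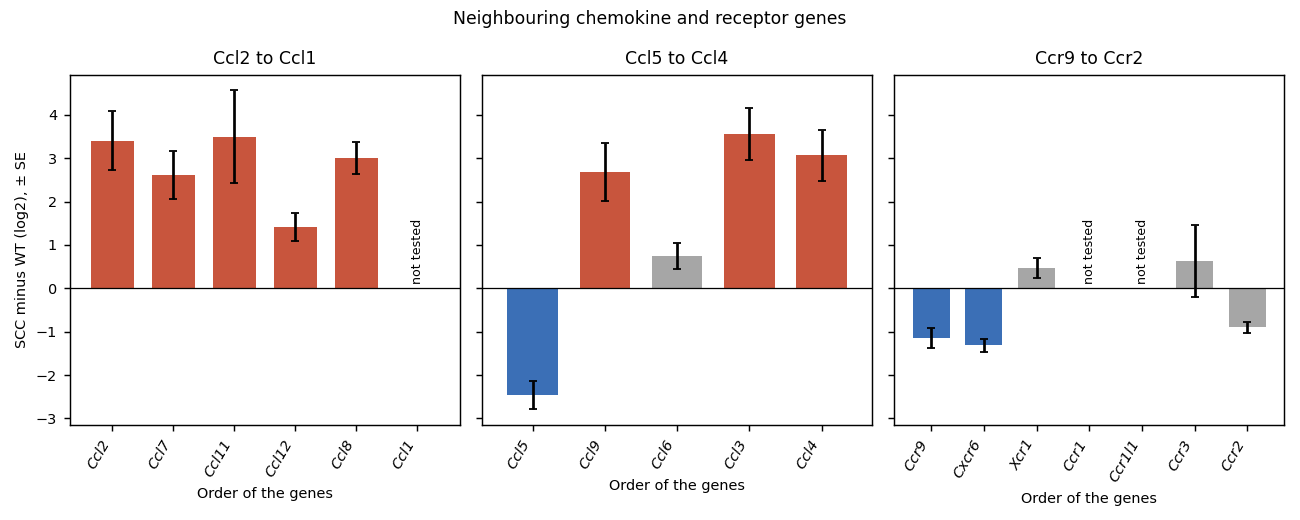
Difference (log2, ± SE, n = 5 per group) of genes in 3 runs of neighbouring members, in their order on chromosome 11 (left and middle) and chromosome 9 (right), red for called higher, blue for lower and grey for not called. All 5 tested genes of the left run are higher, from 1.41 to 3.49, the middle run holds both directions, and the called genes drawn in the right run are lower. The plots leave out the member whose values are not reported, so the drawn genes do not give the direction of every call.

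Promoter sequences are shown for contrasting calls, namely the neighbours Ccl8 and Ccl12 and the CCR1 ligand Ccl9 (all higher), Cxcl12 (lower) and Cxcl10 (not called). They are the 200 bases before the RefSeq gene start (GRCm38.p6), written 5′ to 3′ on the gene's strand, with capitals where a searched motif matched. Ccl8 lies at chr11:82114985-82115184 (+), Ccl12 at chr11:82101645-82101844 (+), Ccl9 at chr11:83578637-83578836 (-), Cxcl12 at chr6:117168335-117168534 (+) and Cxcl10 at chr5:92348890-92349089 (-).
Ccl8: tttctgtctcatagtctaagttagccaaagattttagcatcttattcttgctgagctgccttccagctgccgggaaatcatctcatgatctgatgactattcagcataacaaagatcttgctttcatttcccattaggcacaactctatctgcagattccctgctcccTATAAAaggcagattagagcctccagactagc
Ccl12: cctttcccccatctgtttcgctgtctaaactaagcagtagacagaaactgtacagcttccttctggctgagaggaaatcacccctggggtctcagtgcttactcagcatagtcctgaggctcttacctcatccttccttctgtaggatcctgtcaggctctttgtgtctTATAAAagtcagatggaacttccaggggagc
Ccl9: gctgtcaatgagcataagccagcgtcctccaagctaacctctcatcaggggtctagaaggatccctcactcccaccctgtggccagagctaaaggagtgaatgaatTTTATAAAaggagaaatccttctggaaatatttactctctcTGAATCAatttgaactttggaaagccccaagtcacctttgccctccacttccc
Cxcl12: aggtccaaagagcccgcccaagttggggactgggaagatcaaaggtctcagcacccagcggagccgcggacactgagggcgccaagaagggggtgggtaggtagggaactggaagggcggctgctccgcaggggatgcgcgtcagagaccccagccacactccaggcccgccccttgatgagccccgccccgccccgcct
Cxcl10: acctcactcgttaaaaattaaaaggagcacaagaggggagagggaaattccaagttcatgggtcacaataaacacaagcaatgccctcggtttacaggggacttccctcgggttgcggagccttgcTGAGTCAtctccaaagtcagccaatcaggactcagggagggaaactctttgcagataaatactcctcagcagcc

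Ccl8 and Ccl12 hold a TATA box (TATAAA) at 32 and 31 bases before the start. Ccl9 holds 2 overlapping matches to it, one on each strand, at 94 and 92 bases, and an AP-1 motif (TGANTCA) at 53 bases. Cxcl10 holds an AP-1 motif at 74 bases, and none of the searched motifs matched in the Cxcl12 window. All motifs were searched on both strands. Of the 47 genes, 35 had a promoter in the table, and 9 of these held the TATA letters, against 9.96% of all 32851 promoters. A gene was counted if any promoter listed for it matched, while the share is over single promoters, so these measures differ. The AP-1 letters were in 5 of 35 (5.48% of all) and the letters of a gamma-activated site (TTCNNNGAA) in 4 of 35 (5.49%). Those with AP-1 letters were Ccl9 (higher), Ccl27a (lower), Ccr3 and Cxcl10 (not called) and Ccr4 (not tested). Those with the TATA letters were Ccl8, Ccl9 and Ccl12 (higher), Cx3cl1 (lower) and Ccl25, Cxcl9, Cxcl13, Cxcr4 and Xcr1 (not called).

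Beyond the family itself, 46 other genes of chemokine biology were tested, and 5 were called higher and 9 lower. Among atypical receptors, which bind chemokines without G protein signalling, Ackr1, which carries inflammatory chemokines across venules, was higher by 2.16 ± 0.249 (SE), adjusted p = 0.000103. Ackr2, a scavenger of inflammatory CC chemokines, was lower (-2.17 ± 0.206 (SE), adjusted p = 3.71e-05). Ackr4, a scavenger of Ccl19, Ccl21a and Ccl25, was also lower (-4.27 ± 0.503 (SE), adjusted p = 0.000117). It read 7.83, 8.10, 7.36, 8.31 and 7.55 in WT and 4.29, 5.22, 3.02, 2.95 and 2.32 in SCC. The groups were far apart, but SCC replicates 3 and 4 were not above background for Ackr4, so it was tested only through WT. With normexp correction the difference was -1.66. Chemerin (Rarres2) and its binding receptor Ccrl2 were also lower, at -2.60 and -1.29. Ppbp, a platelet-derived CXC chemokine with another symbol, read 11.94, 12.18, 11.96, 11.69 and 10.93 in WT and 17.21, 10.67, 17.35, 17.46 and 17.21 in SCC. SCC replicate 2 was below every WT array and the other 4 were far above, giving 4.24 ± 1.22 (SE), adjusted p = 0.0165. Without SCC replicate 2 the Ppbp difference was 5.57 (adjusted p = 2.68e-07).

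Of 28 signalling genes, 2 were called higher, 3 lower and 23 neither. Rgs1 and Rgs16, which shorten G protein signals, were higher (3.35 ± 0.849 (SE), adjusted p = 0.00902 and 2.40 ± 0.324 (SE), adjusted p = 0.000264). With slide as a fixed block the calls of Rgs1 (adjusted p = 0.213), Rgs16 (adjusted p = 0.0519) and Ppbp (adjusted p = 0.254) were lost. Rgs1 on SCC replicate 2, at 6.76, was within the WT range, and without that array its difference was 4.26. Arrestin Arrb1, the receptor kinase Grk5 and the Rac activator Elmo1 were lower, at -1.16, -1.71 and -1.32. On a dimmer probe of the same gene, Arrb1 differed by -0.49 (adjusted p = 0.0903) and Elmo1 by -0.31 (adjusted p = 0.625), and neither was called. Of 9 genes for cleavage and retention of chemokines, Sdc1, a heparan sulfate proteoglycan, was higher (1.72 ± 0.109 (SE), adjusted p = 4.52e-06). Dpp4, a protease that trims chemokines such as Cxcl12, was lower (-2.08 ± 0.149 (SE), adjusted p = 8.4e-06), as was Ndst1, which sulfates heparan sulfate (-1.33 ± 0.116 (SE), adjusted p = 2.34e-05). The groups of Sdc1, Dpp4 and Ndst1 did not overlap. On a dimmer Ndst1 probe the difference was -0.39 (adjusted p = 0.344), which was not called.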

How the data were processed

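Total RNA of 10 mouse samples had been labelled with Cy3 and hybridised to single-colour arrays. Per the file headers, the authors extracted spots with Agilent Feature Extraction 12.0.0.7, and the deposited scanner files hold a processed intensity per spot on a linear scale. A matrix of log2 values, also deposited, matched log2 of each array's quantile-normalized intensity and served to choose probes and as an alternative. Quantile normalization, log2 and a one-way ANOVA are the study's methods, and limma replaced the ANOVA.

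Here control and outlier spots were left out, the spots of a probe were averaged on the log2 scale, and 41174 probes were quantile-normalized. On an array, a probe was above background if the flag stood on a share of 0.5 or more of its spots. No spot was saturated, and the number of arrays limits the precision. SCC was compared with WT by limma 3.58.1 under R 4.3.3 (functions lmFit and eBayes, two-sided, no covariate, Benjamini-Hochberg adjustment over 30374 probes). The fit was tested on simulated data.

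Accessions were paired with symbols through a RefSeq table (GRCm38.p6), which named 28223 probes (68.5%). Where probes shared a gene, the one with the highest mean over the deposited matrix columns was used. Promoter sequences are from RefSeq. Protein sequences were not used here. The values of 1 member and 1 marker gene are not reported here, although counts and medians include them, and the plots leave the member out.

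The members, lists and tests were chosen with earlier results of these data known. Values on every array were to be given for the 8 called genes with the largest rise and the 8 with the largest fall, for genes above background in one group only and for their tested ligands or receptors, and were extended to the other tested genes after their values were seen. Other pathway genes were named if called. Cell type marker lists for T, NK and B cells, dendritic cells, macrophages and monocytes, neutrophils, eosinophils, lymphatic and blood endothelium, fibroblasts and squamous epithelium stand in the report, and those for thymocytes, mast cells, lung epithelium and cardiac muscle after it. Alternatives changed the scaling, background correction, dim-probe filter, probe, threshold, test, slide, replicate block and arrays. The files hold no mean spot signal, so the background alternative used the median signal, chosen after seeing the data.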

Additional observations from a re-analysis of the deposited data

Results flagged for a closer look

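A single array stood apart from the other 4 of its group in 16 of 108 groups examined (each tested member and each other called pathway gene, in WT and in SCC), by Dixon's gap over range above 0.71. Chance flags about 1 in 20 groups. SCC replicate 2 accounted for 13 of the 16.

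It was the lowest SCC array for Ccl2 (gap ratio 0.817, 8.64 against 11.65 on the next), Ccl3 (0.9, 8.90 against 11.81), Ccl4 (0.736, 8.45 against 10.93), Ccl6 (0.794, 15.45 against 16.70), Ccl7 (0.749, 6.88 against 9.17), Ccl8 (0.727, 10.06 against 11.57) and Ccl9 (0.804, 11.09 against 14.20). Among the other pathway genes it was lowest for Ackr1 (0.756, 7.30 against 8.38), Ppbp (0.963, 10.67 against 17.21) and Rgs1 (0.896, 6.76 against 11.13). It was the highest SCC array for Ccl17 (0.749, 9.06 against 8.39), Ccl28 (0.852, 8.28 against 5.11) and Dpp4 (0.753, 11.24 against 10.66). These genes share samples and are not independent.

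Outside SCC replicate 2, WT replicate 1 was the lowest WT array for Ccl8 (0.732, 7.92 against 8.52), WT replicate 2 the highest for Ccr3 (0.806, 9.66 against 7.30), and SCC replicate 1 the highest SCC array for Xcl1 (0.771, 5.88 against 4.31).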

How the results depend on the processing

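Against 11 higher and 10 lower members and 14 other pathway genes called, the adjusted p alone gave 16 lower members and 26 pathway genes. Slide as a fixed block gave 2 higher and 5 lower members. Slide 2 alone, with 1 WT and 3 SCC arrays, called no probe by limma (0 higher members, 0 lower members and 0 pathway genes), where 11 tested members and 5835 tested probes had an unadjusted p below 0.05. The lone WT array is there assumed to vary like the others. Other settings kept these counts within 1.5 times. Leaving out 1 array gave 10 to 13 higher members, 10 to 12 lower members and 14 to 18 pathway genes. Calls were then also gained by Cxcl13 (without WT replicate 1), Cx3cr1 (without SCC replicate 2 or 4), Ccl21a (without SCC replicate 2) and Ccl25 (without SCC replicate 1 or 5). Sign turned for Cxcl10 (-0.051 with slide as a fixed block and within slide 2) and for Cxcr3 (-0.34 in both, and -0.12 without SCC replicate 4, in a range up to 0.31 over single arrays left out), neither of them called. Of 1400 comparisons of single genes with an alternative, 1297 kept both sign and side of the threshold, 77 lost a call and 21 gained one.

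Scaling to the 75th percentile moved the median of all tested probes from -0.09 to 0.03 and the share of higher among called probes from 43.3% to 53.2%, with 12 higher and 8 lower members (Ccr9 and Xcl1 lost, Ccl28 gained). Normexp correction on the median signal gave 10 higher and 7 lower members, without Cxcr1, Ccr6, Ccr9 and Xcl1. The dimmer probe ended the calls of Cxcl12, Ccrl2 (-0.92), Arrb1, Elmo1 and Ndst1, and the count of pathway genes called was 11. The mean of a gene's probes ended those of Arrb1 (-0.83) and Ndst1 (-0.90). Normexp correction ended that of Elmo1 (-0.98), and the strict filter left Xcl1 out. The ANOVA at an unadjusted p below 0.01 gave 9 higher and 9 lower members, without Ccl11, Cxcr1 and Xcl1. With a replicate block the counts were 11, 10 and 14. Same-numbered samples did not deviate together over the probes (correlations of -0.10 to 0.01). The labels do not say what the numbers mark, and these correlations cannot exclude a shared origin with a small effect.

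Dim probes limit what can be read. Xcl1, Ccl20 and Ccl28 were above background on some arrays of a group only, and 7 members were not tested. A gene that missed the threshold is not shown to be equal in both groups. No genome or probe sequence was used, so cross-reading between relatives could not be examined.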

Other observations

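Of the 47 genes, 12 had several probes. Their second probes gave the same sign in every pair tested, with Ccl7 called higher by both (2.61 and 2.35). Under 2-fold in both probes were Ccl19 (-0.62 and -0.78), Ccl25 (-0.98 and -0.86), Ccr2 (-0.90 and -0.50), Ccl24 (0.90 and 0.78), Ccr3 (0.63 and 0.35), Xcr1 (0.46 and 0.18) and Cxcr4 (-0.19 and -0.05). The second Cxcl16 probe gave 0.58 ± 0.217 (SE) with an adjusted p of 0.0498, where the first gave 0.15 with an adjusted p of 0.457.

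Mast cell markers were mixed, with Mcpt4 higher by 4.33 ± 0.722 (SE), adjusted p = 0.000909, and Cpa3 (-2.51) and Cma1 (-1.70) lower. Cpa3 was above background on 2 SCC arrays and was tested only through WT. Markers of alveolar and airway epithelium were called lower for 3 of 9 genes and higher for none. Cardiac muscle markers were called lower for 4 of 5 genes (Actn2 through WT alone, with 3 SCC arrays above background), with a summed level of 13.20 on WT replicate 1, 15.31 to 16.78 on the other WT arrays and 13.05 to 13.27 in SCC. Of thymocyte markers, 1 of 3 was tested and it was not called.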
